A study of Mus musculus with 26 samples.

Results

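The genes described here are 326 protein-coding genes of mouse embryonic fibroblasts (MEFs) that span over 200 kb each and were expressed in every RNA-Seq library. They were chosen from 53801 genes in the RNA-Seq files by 2 values, the GENCODE M21 gene span and the RNA level in TPM (transcript abundance corrected for length and depth), with a floor of 5 TPM in each of the 6 libraries. Stag1 and 5 genes of the Col, Sema, Plx, Adamts and Foxp families (Col4a5, Sema5a, Plxdc2, Adamtsl3 and Foxp1) met both thresholds and were left out by the rule. Of 996 protein-coding genes over 200 kb, 664 fell under the TPM floor in at least 1 library, and of 9143 protein-coding genes over the floor, 8811 spanned up to 200 kb. Since the floor was set on the expression values themselves, counts and medians over these genes describe the genes kept and are not independent evidence of a direction.

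All cells were female MEFs. WT cells carried intact Atrx, which encodes a SWI/SNF-family chromatin remodeler that binds RNA. ATRXΔRBR cells came from CRISPR deletion of the RNA binding region (RBR) of ATRX after puromycin selection, and the study describes 1 clone, so a property of that clone and the deletion cannot be told apart. The libraries labelled ATRX KD came from MEFs with an ATRX shRNA, also selected with puromycin. RNA-Seq on poly(A)-selected RNA was done with 2 replicate libraries for each of the 3 genotypes. CUT&RUN, in which an antibody-tethered nuclease releases the bound DNA, gave 1 peak list per library, with 2 replicates for ATRX in WT and ATRXΔRBR and 2 for EZH2 and H3K27me3 in all 3 genotypes. EZH2 is the catalytic subunit of Polycomb repressive complex 2 and H3K27me3 is the histone mark it places. The IgG libraries were not analysed here.

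Very long genes take longer to transcribe than short ones, and most of their span is intron. Many encode large proteins of the cytoskeleton, of cell adhesion and of signalling. Several lie at common fragile sites, regions where late replication and long transcription units coincide, and long genes are known to depend on topoisomerases and on elongation factors. H3K27me3 typically covers repressed genes, while EZH2 is often found at CpG-rich promoters. The comparisons ask how these genes were expressed without the RBR and with the ATRX shRNA, and where ATRX, EZH2 and H3K27me3 lay along them.

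Library totals ran from 9051712 to 21723597 estimated counts, and the 326 genes took 2.04% to 2.92% of them. Of 12 fibroblast markers 7 were over 5 TPM in each library, Thy1 was listed at 0 in each, and the fibroblast list summed to 11366 to 13685 TPM in WT, 21232 to 23303 TPM in ATRXΔRBR and 18610 to 18853 TPM in ATRX KD. The epithelial, endothelial, blood, muscle and neural lists each summed to at most 14.6 TPM in any library. The part of these differences in the results was not tested. Atrx RNA stood at 633 and 434 CPM in WT, 371 and 312 CPM in ATRXΔRBR and 411 and 550.4 CPM in ATRX KD. It was not detectably lower in the libraries labelled ATRX KD (log2 fold change against WT -0.15 ± 0.21, SE, edgeR adjusted p = 0.60) or in ATRXΔRBR (-0.63 ± 0.22, adjusted p = 0.14), so RNA level does not check these labels, and the RBR deletion removes only part of the transcript. In TPM Atrx stood at 233 and 141 in WT and at 331 and 512 in ATRX KD. By western blot the study reports lower ATRX and DAXX protein in its knockdown MEFs. The raw file names of WT and ATRXΔRBR name 1 sequencing run and those of ATRX KD name none, so the shRNA and a batch cannot be told apart in any comparison with ATRX KD. Nothing in the labels says that replicates came from separate cultures, and the methods call them biological. Fewer cells with a transcript and less RNA per cell cannot be told apart in these bulk libraries.

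The 326 genes spanned 200.03 to 4434.88 kb, with a median of 282.6 kb, and lay on 20 chromosomes, 9 of them on the X. Their bodies together, from 2 kb after the start of the gene to its end, covered 115.4 Mb of the mm10 genome. Just inside the length threshold were Pcbp3 (200.03 kb), Umad1 (200.2 kb) and 4930402H24Rik (200.2 kb), and just outside it Atp9b (199.9 kb), Clec16a (199.5 kb) and Mical3 (199.3 kb). Just inside the floor were Atg10, Camkmt and Psd3, with lowest values of 5.04, 5.06 and 5.08 TPM, and just outside it Macrod2, Tbc1d32 and Maml2, at 4.79, 4.79 and 4.77 TPM. The longest gene, Gm20388 (chr8:119910841-124345722), is a model that shares its strand with 38 other protein-coding genes, so its counts and peaks are not those of 1 gene. A further 9 genes overlapped a coding gene of the same strand, among them Camta1, Schip1 and Pakap, and RSEM may have split reads between them.

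In WT the genes had a median level of 21.4 TPM, against 45.7 TPM for the shorter expressed genes. The highest was App, the amyloid precursor protein gene, at 349 TPM (mean of 2 libraries), followed by Ulk4 (246), Chchd3 (214), Ltbp1 (183), Adk (147), Snd1 (146), Eya4 (134) and Lhfp (125 TPM). Ltbp1 holds latent TGF-β in the matrix, Adk is adenosine kinase and Eya4 is a transcriptional cofactor with phosphatase activity. After Gm20388 the longest genes were Ccser1 (1203 kb), Nrg1 (1069 kb), which encodes the ErbB ligand neuregulin-1, Rbms3 (1057 kb), an RNA-binding protein gene, and Gpc6 (1051 kb), a glypican gene.

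In ATRXΔRBR 13 genes rose and 1 fell against WT (edgeR quasi-likelihood test, adjusted p under 0.05 over 16287 genes tested). Over all genes tested 6.88% were called, 2.79% higher and 4.08% lower, so the share of very long genes that rose was above the background and the share that fell below it, under a floor that bears on both. Among the shorter expressed genes, kept by the same floor, 2.25% were higher and 1.57% lower, against 3.99% and 0.31% of the very long genes. Both ATRXΔRBR libraries lay above both WT libraries in 110 of the genes (background 23.2%) and below them in 56 (background 26.4%). The median log2 fold change was 0.15 over the very long genes, -0.01 over the shorter expressed genes and -0.02 over all genes tested. At an unadjusted p under 0.05 the number was 60 of 326. It was 3355 of 16287 over all genes tested and 1582 of 8811 over the shorter expressed genes. The replicates bear unequally on this median, since the very long genes lay 0.26 above the WT mean of log2 CPM in ATRXΔRBR replicate 1 and 0.03 above it in replicate 2, and leaving out replicate 1 gave a median of 0.03 with 11 genes higher and 4 lower. Without ATRXΔRBR replicate 2 the calls were 22 higher and 0 lower, and without WT replicate 2 they were 27 and 1. The number of calls also moved with the fit, to 28 (23 higher, 5 lower) with all 6 libraries fitted together and to 36 (29 and 7) without a filter on low counts. Over all genes tested these 2 fits called 1736 of 17956 and 1979 of 26561.

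The split between higher and lower calls depended on the TPM floor. With the floor set on the WT libraries alone, 356 genes were kept, of which 16 rose and 18 fell in ATRXΔRBR. With a floor on the mean of all 6 libraries the numbers were 19 and 20 of 390. Of the genes that the floor removed, 18 had at least 5 TPM in both WT libraries and under 5 TPM in an ATRXΔRBR library, and 14 of them fell. Another 21 had at least 5 TPM in both ATRXΔRBR libraries and under 5 TPM in a WT library, and 4 of them rose. None of these genes is among the 326.

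Psd3, which encodes an exchange factor for the GTPase ARF6, rose most. Its levels were 19.2 and 32.4 CPM in WT, 125 and 64.2 CPM in ATRXΔRBR and 60.9 and 62.9 CPM in ATRX KD, and its log2 fold change in ATRXΔRBR was 1.89 ± 0.36 (SE, edgeR adjusted p = 0.021). Both ATRXΔRBR libraries lay above both WT libraries, and the replicates of each of these genotypes were apart. Itpr2, an IP3-gated calcium channel gene of the endoplasmic reticulum, stood at 32.7 and 30.6 CPM in WT, 114 and 77.6 CPM in ATRXΔRBR and 54.8 and 55.2 CPM in ATRX KD, a change of 1.61 ± 0.23 (SE, edgeR adjusted p = 0.0055) in ATRXΔRBR. The WT libraries were close together here, and ATRX KD lay between WT and ATRXΔRBR. Prune2 had 75.8 and 136 CPM in WT, 404 and 209 CPM in ATRXΔRBR and 122 and 128 CPM in ATRX KD. Its change of 1.54 ± 0.37 (SE, edgeR adjusted p = 0.046) in ATRXΔRBR stood beside one that did not pass the test in ATRX KD (0.23 ± 0.25, SE, adjusted p = 0.51).

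Hdac4, the class IIa histone deacetylase gene, had 24.1 and 19.1 CPM in WT, 53.05 and 47.3 CPM in ATRXΔRBR and 47.5 and 46.98 CPM in ATRX KD. Both altered genotypes lay above WT, by 1.22 ± 0.20 (SE, edgeR adjusted p = 0.0092) in ATRXΔRBR and by 1.12 ± 0.16 (SE, adjusted p = 0.0027) in ATRX KD. Arl15, a small GTPase gene, and Abcc4, the efflux transporter MRP4, rose in both genotypes, with log2 fold changes in ATRXΔRBR of 0.98 and 0.96 and in ATRX KD of 1.02 and 1.06. Fbn1 encodes fibrillin-1, the main protein of extracellular microfibrils. It was measured at 111 and 132 CPM in WT, 289 and 189 CPM in ATRXΔRBR and 523 and 549.6 CPM in ATRX KD, the order of the 3 genotypes being the same in every library. Its change was 0.99 ± 0.24 (SE, edgeR adjusted p = 0.046) in ATRXΔRBR and 2.14 ± 0.13 (SE, adjusted p = 0.00014) in ATRX KD, and the first of these was 0.65 without ATRXΔRBR replicate 1 and did not pass the edgeR test there (adjusted p = 0.15).

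Ghr, the growth hormone receptor gene, moved in opposite directions. Its levels were 16.2 and 20.96 CPM in WT, 39.7 and 34.02 CPM in ATRXΔRBR and 10.9 and 11.02 CPM in ATRX KD, with no overlap between genotypes. It rose by 0.99 ± 0.21 (SE, edgeR adjusted p = 0.028) in ATRXΔRBR and changed by -0.76 ± 0.19 (SE, adjusted p = 0.021) in ATRX KD, and the ATRX KD libraries lay -1.77 ± 0.16 (SE, adjusted p = 8.4e-05) from ATRXΔRBR. Msi2, coding for the RNA-binding protein Musashi-2 (1.05), Tln2, coding for talin-2, which ties integrins to actin (0.95), Cpq, a carboxypeptidase gene (0.92), Trappc9, a vesicle tethering subunit gene (0.86), and Agap1, an ARF GTPase-activating protein gene (0.82), complete the genes that rose (values are log2 fold changes in ATRXΔRBR). The gene that fell was Gbe1, which encodes the glycogen branching enzyme. It had 35.9 and 39.6 CPM in WT, 21.8 and 21.2 CPM in ATRXΔRBR and 33.4 and 31.8 CPM in ATRX KD, a change of -0.80 ± 0.18 (SE, edgeR adjusted p = 0.036) in ATRXΔRBR. The calls of Abcc4, Agap1, Fbn1, Gbe1, Ghr, Tln2 and Trappc9 did not hold in 1 or more of the 4 fits that left out a library. Those fits assume that the lone library of a genotype varies like the pair of the other, and in them the size of the log2 fold change of these genes was 0.65 to 0.84, where it was 0.80 to 0.99 with all 4. The change was not smaller for Agap1 without ATRXΔRBR replicate 2 (0.83, against 0.82 with all 4 libraries). Nor was it smaller for Gbe1 without ATRXΔRBR replicate 1 (-0.83, against -0.80). In the other cases a smaller change and the loss of a library from the test cannot be told apart.

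In the libraries labelled ATRX KD 135 of the genes rose and 27 fell against WT, where 33.1% of all 16748 genes tested were called, 15.2% higher and 17.8% lower. Of the shorter expressed genes 18.4% were higher and 21.3% lower. The median log2 fold change was 0.36 over the very long genes, -0.04 over the shorter expressed genes and -0.02 over all genes tested. Both ATRX KD libraries lay above both WT libraries in 205 of the 326 genes and below them in 66, where the background was 34.1% above and 35.8% below. With the floor on the WT libraries alone 139 of 356 rose and 47 fell. Of 20 genes with 5 TPM in both WT libraries that the floor removed for an ATRX KD library 18 fell, and of 47 with 5 TPM in both ATRX KD libraries that it removed for a WT library 34 rose. The count of calls was 101 without ATRX KD replicate 2 and 245 without WT replicate 2. Both comparisons use the same WT libraries.

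Slit2 and Ulk4 fell most. Slit2, a guidance ligand of the ROBO receptors, had 169 and 232 CPM in WT, 231 and 163 CPM in ATRXΔRBR and 22.8 and 22.6 CPM in ATRX KD. It fell to a low level in both ATRX KD libraries (-3.15 ± 0.18, SE, edgeR adjusted p = 0.00012), while WT and ATRXΔRBR overlapped. Ulk4, which stood second in WT level among the very long genes, had 116 and 88.7 CPM in WT, 88.4 and 63.02 CPM in ATRXΔRBR and 12.4 and 11.1 CPM in ATRX KD, a change of -3.13 ± 0.18 (SE, edgeR adjusted p = 0.00012). It encodes a kinase-like protein of the ULK family. Phex, an X-linked endopeptidase gene known from phosphate balance in bone, had 49.5 and 50.2 CPM in WT, 94.2 and 72.9 CPM in ATRXΔRBR and 11.3 and 11.8 CPM in ATRX KD, and its change was -2.11 ± 0.14 (SE, edgeR adjusted p = 0.00019). In ATRXΔRBR Phex lay above WT in both libraries without passing the test (0.75 ± 0.19, SE, adjusted p = 0.062).

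Angpt1, the TIE2 receptor ligand, fell by 2.01 on the log2 scale (66.5 and 88.9 CPM in WT, 82.4 and 61.2 CPM in ATRXΔRBR and 20.2 and 18.7 CPM in ATRX KD, edgeR adjusted p = 0.0005). Cacna1a, the pore subunit of P/Q-type calcium channels, changed by -1.82, Ablim1, an actin-binding LIM protein, by -1.43, Celf2, a splicing regulator, by -1.22, Ank3, the membrane-skeleton adaptor ankyrin-G, by -1.198, Ssbp2 by -1.06 and Atg7, the E1-like enzyme of autophagy, by -0.83. In each of these 6 genes both ATRX KD libraries were below both WT libraries. Ank3 and Ssbp2 were higher in both ATRXΔRBR libraries than in either WT library, with changes that did not pass the test (0.67 and 0.48, edgeR adjusted p = 0.086 and 0.20).

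Among the genes that rose, Fbn1 led, and Pakap followed with 1.86 ± 0.24 (SE, edgeR adjusted p = 0.002), although its model overlaps 2 coding genes of the same strand. Ccser1, the longest after Gm20388, had 5.81 and 7.43 CPM in WT, 4.62 and 5.52 CPM in ATRXΔRBR and 20.8 and 23.1 CPM in ATRX KD, a change of 1.73 ± 0.19 (SE, edgeR adjusted p = 0.0011). Its rise was larger still against ATRXΔRBR (2.08 ± 0.19, SE, adjusted p = 8.3e-05), where the gene lay below WT in both libraries. Syne2, which encodes the nuclear envelope spectrin-repeat protein nesprin-2, had 76.8 and 139.7 CPM in WT, 219.5 and 102 CPM in ATRXΔRBR and 299 and 349.7 CPM in ATRX KD. The WT libraries differed from each other by a wide margin for Syne2, and the rise in ATRX KD passed the test (1.58 ± 0.26, SE, edgeR adjusted p = 0.0048). Nf1, the gene of the RAS GTPase-activating protein neurofibromin, had 65.2 and 82.5 CPM in WT, 128 and 80.3 CPM in ATRXΔRBR and 217 and 222 CPM in ATRX KD, a change of 1.56 ± 0.14 (SE, edgeR adjusted p = 0.00057). Dst, coding for the cytolinker dystonin (1.55), Vwa8 (1.504), Cdh2, the N-cadherin gene (1.47), Lrba, coding for a vesicle trafficking protein (1.46), and Iqsec1, coding for an ARF6 exchange factor (1.45), were the other genes among the 10 that rose most. Cdh2 was tightly measured, at 75.6 and 82.6 CPM in WT, 99.3 and 80.3 CPM in ATRXΔRBR and 221 and 219 CPM in ATRX KD.

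**Figure D1:**
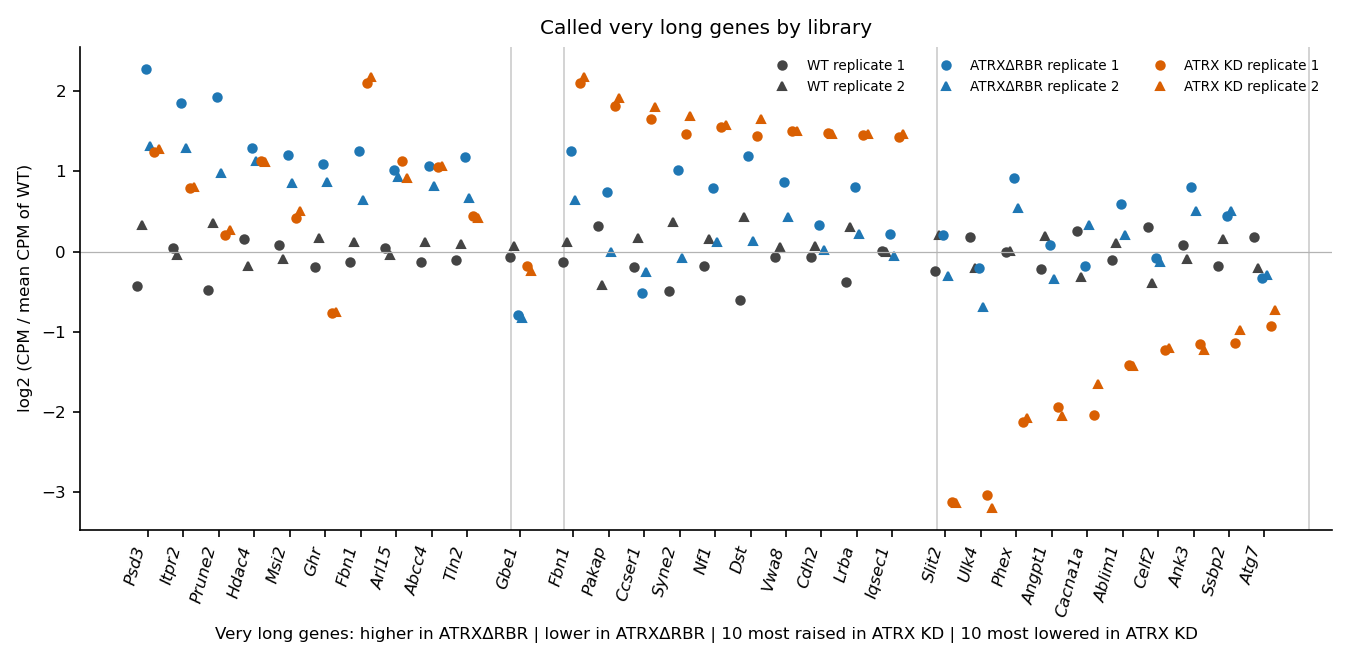
CPM of the called very long genes in each of the 6 RNA-Seq libraries, as log2 of the ratio to the mean of the 2 WT libraries (circles replicate 1, triangles replicate 2). The ATRX KD libraries (orange) lie together for nearly every gene, while the ATRXΔRBR libraries (blue) often differ, as for Psd3 with 125 and 64.2 CPM.

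By function, the cytoskeleton and focal adhesion list held 25 of the genes, of which 16 rose and 2 fell in ATRX KD and 1 rose in ATRXΔRBR (median log2 fold changes 0.61 and 0.41). Over all 326 genes 41.4% rose and 8.28% fell in ATRX KD, and 3.99% rose and 0.31% fell in ATRXΔRBR. The counts of this list and those that follow were not tested against these shares. Macf1, the actin and microtubule crosslinker, had 234 and 378 CPM in WT, 459 and 274 CPM in ATRXΔRBR and 747 and 804 CPM in ATRX KD, a change of 1.34 ± 0.21 (SE, edgeR adjusted p = 0.0042) in ATRX KD. Lmo7 (1.396), Map2 (1.09), Diaph3 (1.07) and Myo1d (1.21) also rose. Of 11 genes of adhesion, matrix and guidance 6 rose and 3 fell in ATRX KD, the falls being Slit2, Nrg1 (-0.70) and Ext1, a heparan sulphate polymerase gene (-0.76). Besides Fbn1 and Cdh2, the rises included Adgrl3 (0.95), Cdh13 (0.93) and Ltbp1 (0.56). The list of kinases, phosphatases and GTPase regulators held 41 genes, of which 21 rose and 3 fell. Here Plcb1 (1.297), Plce1 (1.19), both phospholipase C genes, Sipa1l1 (1.19) and the receptor phosphatase Ptprg (1.09) had the highest fold changes of this list, and Ghr, Sh3kbp1 (-0.55) and Stk3, a kinase of the Hippo pathway (-0.53), fell.

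Of 39 genes of ubiquitin conjugation, trafficking, transport and metabolism 19 rose and 1, Atg7, fell in ATRX KD (median 0.57), and 3 rose in ATRXΔRBR (median 0.43). The change of Atg7 was -0.83 with all libraries and -0.74 without ATRX KD replicate 1, where it did not pass the edgeR test (adjusted p = 0.068). The lipid transfer protein gene Vps13d (1.24) was among the rises. The 21 transcription factor and cofactor genes had a median of 0.08 in ATRX KD, where 6 rose and 1 fell. In ATRXΔRBR 0 passed the edgeR test (0 by DESeq2), and 4 had an unadjusted p under 0.05, as had 60 of all 326 genes. The zinc finger gene Zbtb20 (1.297), the nuclear receptor coactivator gene Ncoa2 (1.11), the Hedgehog effector gene Gli3 (0.80) and the Hippo effector gene Tead1 (0.78) rose, and Zfpm2 fell (-0.58). Among 11 chromatin regulators 6 rose, namely Hdac4, Mbd5 (0.86), Arid1b, a BAF subunit gene (0.84), Rere (0.84), the H3K4 methyltransferase gene Kmt2c (0.80) and Phf21a (0.56), and Mllt3 fell (-0.57). Of 7 RNA-binding protein genes 3 rose (Tnrc6b, Rbms3 and Msi2) and 1, Celf2, fell, and the calls of Rbms3 and Msi2 did not hold when either ATRX KD library was left out (edgeR adjusted p = 0.16 to 0.32), although their log2 fold changes stayed at 0.53 to 0.56 for Rbms3 and 0.44 to 0.50 for Msi2. Tnrc6b stood at 0.68 without ATRX KD replicate 2 and did not pass the edgeR test there (adjusted p = 0.055).

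The 11 common fragile site genes are also counted in the lists above. In ATRX KD 5 rose and 0 fell (median 0.57), where 41.4% of all 326 genes rose and 8.28% fell. In ATRXΔRBR 0 passed the edgeR test (median 0.43, 0 by DESeq2). At an unadjusted p under 0.05 the number in ATRXΔRBR was 2, where it was 60 of all 326 genes. Ptprg, the oxidoreductase gene Wwox (0.71), the focal adhesion gene Lpp (0.69) and the exocyst gene Exoc4 (0.55) were among the 5. Wwox had a log2 fold change of 0.72 without either ATRX KD library but did not pass the edgeR test there (adjusted p = 0.074 and 0.085). Immp2l, a mitochondrial peptidase gene, was the exception in direction, with 3.36 and 3.26 CPM in WT, 3.99 and 6.11 CPM in ATRXΔRBR and 1.64 and 1.81 CPM in ATRX KD, a change of -0.93 ± 0.32 (SE, edgeR adjusted p = 0.06) that did not pass the test. The remaining 171 genes were in no list, and 58 of them rose and 15 fell in ATRX KD. The genes for transcript elongation and topoisomerases, 36 in number and none of them very long, gave 9 rises and 5 falls in ATRX KD (median 0.05). Over all genes tested 15.2% were higher and 17.8% lower there. In ATRXΔRBR there were 0 of either by edgeR and by DESeq2 (median -0.02), where edgeR called 6.88% of all genes tested. At an unadjusted p under 0.05 there were 0, where 3355 of all 16287 genes tested were under it.

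Set directly against ATRXΔRBR, the ATRX KD libraries had 102 of the genes higher and 49 lower, where 34.8% of 16485 genes tested were called, 16.3% higher and 18.5% lower, and a median of 0.22. Of the shorter expressed genes 17.7% were higher and 21.9% lower. The count of very long genes called moved when a library was left out. The largest rises besides Ccser1 were Lmo7 (2.05), Plce1 (1.95), Pakap (1.45), Iqsec1 (1.34) and Hacd1 (1.32), and the largest falls Slit2 (-3.14), Phex (-2.88), Ulk4 (-2.72), Cacna1a (-1.94) and Angpt1 (-1.91). Lmo7 and Plce1 were below WT in both ATRXΔRBR libraries and above it in both ATRX KD libraries, at 43.4 and 51.9 CPM in WT, 34.03 and 25.95 CPM in ATRXΔRBR and 122 and 129.8 CPM in ATRX KD for Lmo7.

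The median change in ATRX KD was graded by gene length and was above 0 from 25 kb on. Among genes with at least 5 TPM in each library, the median log2 fold change in ATRX KD was -0.32 for spans up to 10 kb, -0.12 for 10 to 25 kb, 0.05 for 25 to 50 kb, 0.19 for 50 to 100 kb, 0.30 for 100 to 200 kb and 0.36 for the very long genes. In ATRXΔRBR it went from -0.07 in the shortest band to 0.15 in the very long genes, but only replicate 1 rose with span. Its median log2 CPM minus the WT mean was -0.23 in the shortest band and 0.26 in the very long genes. In replicate 2 these values were 0.07 and 0.03. A grading by length was also present between the WT replicates, which stood at -0.06 and 0.06 around their mean for the very long genes and at 0.12 and -0.12 for genes up to 10 kb.

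Transcript length moved with gene span up to 200 kb. Its median was 1459 bases for expressed genes up to 10 kb and 4320 bases for those of 100 to 200 kb. In the very long genes it was 4040 bases. Very long genes with transcripts up to 2 kb had a median of -0.03 in ATRX KD, those with 2 to 4 kb 0.23, those with 4 to 6 kb 0.55 and those with over 6 kb 0.75. The shorter expressed genes gave -0.32, 0.02, 0.31 and 0.57 in the same 4 bands. So within each band the very long genes lay above the shorter genes, and both sets rose with the length of the transcript. In each band the very long genes also had the longer transcripts. Their median lengths were 1567, 3235, 4972 and 7818 bases, against 1372, 2801, 4688 and 7065 bases in the shorter genes. The bands therefore do not match the sets for transcript length. The part of transcript length, of RNA quality and of library preparation in the changes of the very long genes was not tested.

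**Figure D2:**
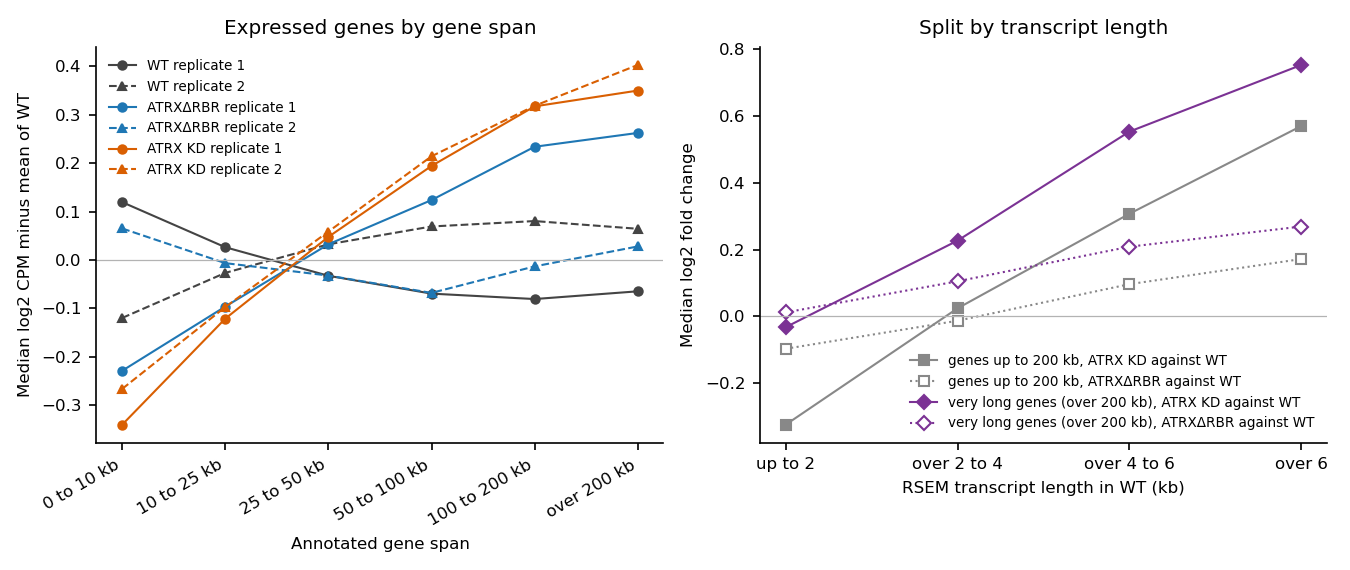
Left, median over expressed genes of log2 CPM minus the WT mean for each library, by annotated gene span. Right, median log2 fold change against WT by RSEM transcript length for very long genes (purple) and genes up to 200 kb (grey). All ATRX KD and the first ATRXΔRBR library rise with gene span, and both gene sets rise with transcript length, to 0.75 and 0.57 over 6 kb in ATRX KD.

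ATRX peaks were found within 2 kb of the annotated start (TSS) of a minority of the very long genes. The share of genes with such a peak was 21.5% and 10.7% in the WT lists and 24.8% and 7.36% in the ATRXΔRBR lists. Replicates of a genotype differed more from each other than the genotypes did, and with 2 lists against 2 an exact permutation test can give no p below 0.333. The shorter expressed genes had shares of 23.7% and 11.1% in the WT lists and 27.9% and 9.48% in the ATRXΔRBR lists, and the very long genes under the TPM floor 3.61% and 1.205% in the WT lists and 2.56% and 1.205% in the ATRXΔRBR lists. In each list the expressed very long genes thus lay slightly below the shorter expressed genes and well above the very long genes under the floor.

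In 24 of the 326 genes (7.36%) ATRX had a TSS peak in both WT lists, as in 7.18% of the shorter expressed genes. Of the 24 genes 7 (29.2%) also had it in both ATRXΔRBR lists and 6 in neither, where 44.9% and 10.9% of 633 shorter genes with a peak in both WT lists did, and these shares were not tested against each other. The 6 genes included Chchd3, coding for a subunit of the mitochondrial cristae complex, Tcf4, an E-protein transcription factor gene, Apbb2, coding for an App-binding adaptor, Phlpp1, coding for an AKT phosphatase, and Camk1d, a calmodulin-dependent kinase gene. The reverse was seen in 1 gene, Nedd4l, a ubiquitin ligase gene (0.31%, against 0.74% of the shorter expressed genes). The RNA of none of these 6 named genes passed the test in ATRXΔRBR (log2 fold changes from -0.22 to 0.40).

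Along the gene bodies ATRX peaks were more frequent in the expressed very long genes than in those under the floor, in each of the 4 lists. The density in ATRX peaks per Mb of body was 5.73 and 3.33 in the WT lists and 3.22 and 3.47 in the ATRXΔRBR lists. Very long genes under the floor had densities of 1.37 and 0.705 in the WT lists and 0.578 and 0.727 in the ATRXΔRBR lists. In the shorter expressed genes the density was 5.22 and 2.64 in the WT lists and 3.44 and 2.76 in the ATRXΔRBR lists, below the very long genes in 3 of the 4 lists. WT replicate 1 stood apart from the other 3 lists, which were close to each other, and its list was also the largest, with 9093 peaks against 4742 in WT replicate 2, 6249 in ATRXΔRBR replicate 1 and 4776 in ATRXΔRBR replicate 2. The density within the gene was highest in the first 2 kb, at 44.6 and 21.5 peaks per Mb in WT and 49.2 and 19.99 in ATRXΔRBR. From 2 to 10 kb it was 9.23 and 6.54 peaks per Mb in WT and 5.77 and 4.62 in ATRXΔRBR, and beyond 200 kb it was 4.57 and 2.86 in WT and 2.39 and 2.92 in ATRXΔRBR (without Gm20388). In the 2 to 50 kb before the TSS the density was 6.30 and 3.28 in WT and 4.24 and 3.98 in ATRXΔRBR, in the range seen within the genes.

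**Figure D3:**
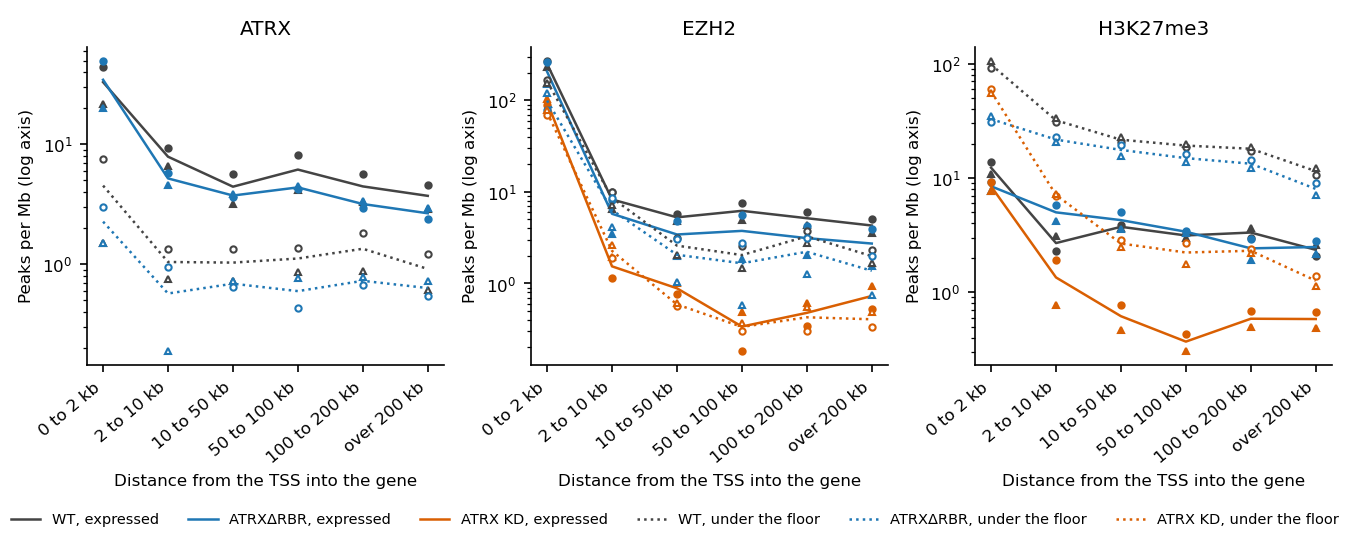
Peaks per Mb (log axis) by distance from the TSS into the gene, without Gm20388. Lines are means of 2 lists, filled symbols single lists of very long expressed genes and open symbols those of very long genes under the TPM floor. ATRX lies higher in expressed genes at every distance, at 4.57 and 2.86 per Mb beyond 200 kb in WT, and H3K27me3 lies lower.

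The 4 lists held 661, 384, 372 and 400 ATRX body peaks in the very long genes (WT 1 and 2, ATRXΔRBR 1 and 2), and 112 of the 661 were found in all 4. Of the peaks of WT replicate 2, 68.8% overlapped one of WT replicate 1 and 71.6% one of ATRXΔRBR replicate 2. Between 79.0% and 84.5% of the peaks per list were intronic and over 2 kb from any start, and 2.15% to 3.00% had their midpoint in an exon, where exons made up 2.94% of the bodies. Between 9.0% and 14.5% lay within 2 kb of an inner start of the gene, where such windows made up 4.45% of the bodies. A peak of EZH2 from the library of the same genotype and number overlapped 53.6% and 50.8% of them in WT and 57.0% and 25.25% in ATRXΔRBR, whereas none in any of the 4 lists overlapped an H3K27me3 peak.

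After Gm20388 the genes with the most ATRX body peaks in WT were Lpp (12 and 5 in WT and 2 and 7 in ATRXΔRBR), 2010111I01Rik (11 and 6 in WT and 6 and 6 in ATRXΔRBR), Babam2, coding for a subunit of BRCA1-associated deubiquitinating complexes (10 and 7 in WT and 6 and 5 in ATRXΔRBR), Glis3, a Krüppel-like zinc finger gene (10 and 5 in WT and 5 and 6 in ATRXΔRBR), Ltbp1 (9 and 6 in WT and 6 and 7 in ATRXΔRBR), Ldlrad4 (10 and 5 in WT and 3 and 5 in ATRXΔRBR) and the kinase gene Mast4 (8 and 6 in WT and 3 and 6 in ATRXΔRBR). Babam2 fell in ATRX KD (-0.59) and Ltbp1, Lpp and Ldlrad4 rose, so these genes shared no direction. Over all 326, the median log2 fold change in ATRX KD was 0.34 in the 155 genes with an ATRX body peak in both WT lists and 0.33 in the 87 with one in neither, and in ATRXΔRBR 0.14 and 0.15. ATRX body density rose with WT level, from 4.93 to 7.31 peaks per Mb between the groups of lowest and highest TPM (109 genes each) in WT replicate 1, from 2.53 to 4.46 in WT replicate 2, from 2.05 to 5.23 in ATRXΔRBR replicate 1 and from 2.74 to 4.48 in its replicate 2.

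Sequences of 4 ATRX body peaks are shown because they were in all 4 lists, lay in introns away from any start and were at most 300 bases long, with 1 chromosome not considered. They are among the 8 with the highest MACS2 fold enrichment in WT replicate 1 of 27 such peaks, and 4 of these 8 held the letters described next, so the peaks shown are those that hold them. Each is the plus strand of mm10, 5′ to 3′, with the letters TGANTCA in capitals, where N is any base. The AP-1 element has C or G at N, so this pattern is wider than AP-1. As a pattern it reads the same on both strands. The letters were chosen after these sequences were seen.
Focad, chr4:88213952-88214247: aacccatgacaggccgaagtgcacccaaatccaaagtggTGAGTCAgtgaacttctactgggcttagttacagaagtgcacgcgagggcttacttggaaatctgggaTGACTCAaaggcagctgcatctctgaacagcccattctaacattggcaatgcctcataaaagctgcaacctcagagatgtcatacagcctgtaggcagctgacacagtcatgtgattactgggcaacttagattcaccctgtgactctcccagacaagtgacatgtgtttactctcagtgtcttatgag
Palld, chr8:61803918-61804135: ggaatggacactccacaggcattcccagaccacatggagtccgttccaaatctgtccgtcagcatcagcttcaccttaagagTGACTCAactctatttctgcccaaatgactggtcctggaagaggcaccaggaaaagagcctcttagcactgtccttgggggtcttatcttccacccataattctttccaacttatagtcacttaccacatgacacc
Nsmce2, chr15:59541068-59541349: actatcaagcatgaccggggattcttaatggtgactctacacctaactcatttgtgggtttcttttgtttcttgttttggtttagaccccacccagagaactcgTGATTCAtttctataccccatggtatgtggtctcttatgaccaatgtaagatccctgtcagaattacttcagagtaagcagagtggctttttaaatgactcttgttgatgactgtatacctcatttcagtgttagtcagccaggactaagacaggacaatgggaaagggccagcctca
Camta1, chr4:151339484-151339723: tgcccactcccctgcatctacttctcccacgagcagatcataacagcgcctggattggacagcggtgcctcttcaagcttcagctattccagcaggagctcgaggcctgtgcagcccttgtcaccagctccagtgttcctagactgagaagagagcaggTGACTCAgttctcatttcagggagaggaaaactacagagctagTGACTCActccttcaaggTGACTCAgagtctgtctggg
The Focad peak held 2 matches, the Palld and Nsmce2 peaks 1 each and the Camta1 peak 3. The Nsmce2 match has T at N and so is not the AP-1 element. The Focad peak lay 119 kb, the Palld peak 98.7 kb, the Nsmce2 peak 167 kb and the Camta1 peak 522 kb downstream of the TSS. Focad codes for the focal adhesion protein focadhesin, Palld for the actin bundler palladin, Nsmce2 for a SUMO ligase of the SMC5/6 complex and Camta1 for a calmodulin-binding transcription activator. An EZH2 peak overlapped the Camta1 site in all 6 EZH2 lists and the Focad site in the 4 lists of WT and ATRXΔRBR.

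In windows of 300 bases around the peak midpoints, TGANTCA occurred in 53.6% and 53.4% of the ATRX body peaks in WT and in 44.6% and 50.25% of those in ATRXΔRBR. Of all 384484 such windows that tile the bodies of the very long genes, 8.89% held it. EZH2 body peaks in WT held it in 45.3% and 43.2%, EZH2 peaks with no ATRX peak in 34.3% and 34.7%, and H3K27me3 body peaks in 9.38% and 6.67%. ATRX peaks at the TSS of the same genes held it in 11.1% and 11.4%. The share was not particular to these genes, since ATRX body peaks of very long genes under the floor gave 59.7% and 53.0% and those of the shorter expressed genes 48.0% and 49.3% in WT. A match is a run of letters with any base at N, not only the C or G of AP-1, and was not tested as a binding site.

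Most of the very long genes had an EZH2 peak within 2 kb of the TSS in WT. The share with a TSS peak was 82.2% and 76.99% in the WT lists, 81.3% and 56.1% in the ATRXΔRBR lists and 34.4% and 39.6% in the ATRX KD lists. Both ATRX KD lists were below all others, and ATRXΔRBR replicate 2 was below WT while replicate 1 was not. The shorter expressed genes gave 85.7% and 79.7% in the WT lists, 88.9% and 58.9% in the ATRXΔRBR lists and 32.03% and 42.3% in the ATRX KD lists. Over the whole genome the ATRX KD lists held 5316 and 7039 EZH2 peaks, where those of WT held 22301 and 18341 and those of ATRXΔRBR 22401 and 11404, so the lower shares moved with the size of the lists, and a change at these genes and a difference in library yield cannot be told apart. An EZH2 TSS peak was present in both WT lists in 246 genes, of which 175 (71.1%) had it in both ATRXΔRBR lists and 5 (2.03%) in neither, and 89 (36.2%) had it in both ATRX KD lists and 99 (40.2%) in neither. Of 6772 shorter expressed genes with it in both WT lists, 74.7% had it in both ATRXΔRBR lists and 1.05% in neither, and 34.5% had it in both ATRX KD lists and 40.6% in neither. The body density in EZH2 peaks per Mb was 7.36 and 5.42 in the WT lists, 5.701 and 2.89 in the ATRXΔRBR lists and 0.693 and 1.11 in the ATRX KD lists. Without Gm20388 these densities were 5.91 and 4.22 in the WT lists, 4.51 and 1.85 in the ATRXΔRBR lists and 0.458 and 0.808 in the ATRX KD lists, which left the order of the lists as it was.

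**Figure D4:**
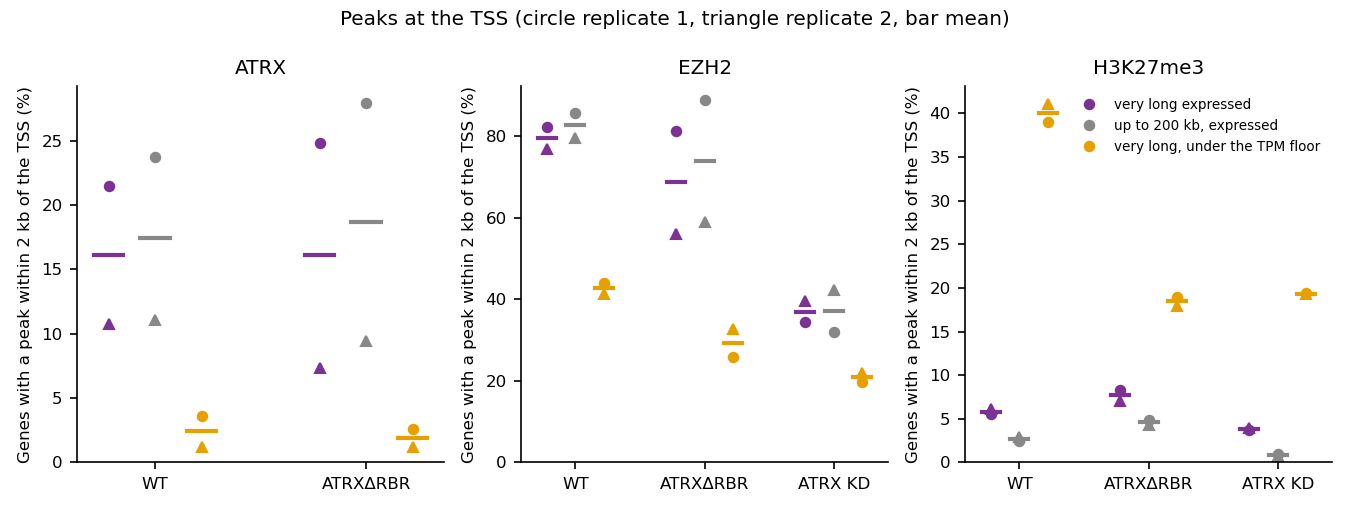
Share of genes (%) with an ATRX, EZH2 or H3K27me3 peak within 2 kb of the TSS, for each peak list, in very long expressed genes (purple), expressed genes up to 200 kb (grey) and very long genes under the TPM floor (yellow). Expressed genes of either length lie close together for ATRX and EZH2, with EZH2 at 34.4% and 39.6% of very long genes in ATRX KD.

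Promoters of genes without an EZH2 peak at the TSS held fewer CpG dinucleotides. In the 250 bases before the TSS the median number of CpG dinucleotides was 20 in the 246 genes with a peak in both WT lists and 4 in the 53 genes with a peak in neither, and the ratio of observed to expected CpG was 0.79 and 0.29. At most 5 CpG were found in 4.88% and 54.7% of these promoters. The annotated TSS may not be the one used in MEFs. To show the contrast, an example of each kind is printed, read from mm10 along the gene's strand, 5′ to 3′, with each CG in capitals.
Ulk4, chr9:121277198-121277447, minus strand: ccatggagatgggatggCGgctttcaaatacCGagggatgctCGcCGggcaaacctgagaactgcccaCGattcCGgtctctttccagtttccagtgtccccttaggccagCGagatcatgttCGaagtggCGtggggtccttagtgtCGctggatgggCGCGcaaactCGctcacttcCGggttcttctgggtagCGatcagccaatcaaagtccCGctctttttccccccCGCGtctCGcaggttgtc
Palld, chr8:61902691-61902940, minus strand: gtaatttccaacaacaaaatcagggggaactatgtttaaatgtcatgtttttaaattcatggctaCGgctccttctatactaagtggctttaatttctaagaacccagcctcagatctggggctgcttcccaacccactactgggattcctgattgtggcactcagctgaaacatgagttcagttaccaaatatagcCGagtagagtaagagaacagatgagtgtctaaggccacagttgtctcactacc
The Ulk4 promoter, with an EZH2 peak in all 6 lists as in 81 of the genes, held 19 CpG, and that of Palld, with none in any list as in 39 of the genes, held 2. The Palld TSS did have an H3K27me3 peak in both WT and both ATRXΔRBR lists, and in neither ATRX KD list. Ulk4 fell in ATRX KD, as given above, and Palld had 199.8 and 135 CPM in WT, 214 and 225 CPM in ATRXΔRBR and 261 and 267 CPM in ATRX KD, a rise of 0.65 ± 0.18 (SE, edgeR adjusted p = 0.033). The median log2 fold change in ATRX KD was 0.43 over the 246 genes with EZH2 in both WT lists and 0.07 over the 53 with it in neither. In ATRXΔRBR the medians were 0.17 and 0.08.

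H3K27me3 lay over fewer of the expressed very long genes than of those under the floor, and over more than of the shorter expressed genes. The share with a TSS peak was 5.52% and 6.13% in the WT lists, 8.28% and 7.06% in the ATRXΔRBR lists and 3.68% and 3.99% in the ATRX KD lists. Among very long genes under the floor the shares were 39.01% and 41.1% in the WT lists, 18.98% and 17.9% in the ATRXΔRBR lists and 19.4% and 19.3% in the ATRX KD lists. Those of the shorter expressed genes were 2.44% and 2.91% in the WT lists, 4.903% and 4.34% in the ATRXΔRBR lists and 0.942% and 0.704% in the ATRX KD lists. The body density in H3K27me3 peaks per Mb was 3.51 and 3.899 in the WT lists, 4.01 and 3.16 in the ATRXΔRBR lists and 0.953 and 0.728 in the ATRX KD lists. Under the floor it was 14.5 and 16.2 in the WT lists, 12.3 and 10.03 in the ATRXΔRBR lists and 2.03 and 1.71 in the ATRX KD lists, higher in every list. The shorter expressed genes had 1.93 and 1.98 in the WT lists, 1.76 and 1.400 in the ATRXΔRBR lists and 0.427 and 0.317 in the ATRX KD lists. Without Gm20388 the very long genes had 2.89 and 3.26 in the WT lists, 3.38 and 2.53 in the ATRXΔRBR lists and 0.710 and 0.485 in the ATRX KD lists. These values were still above the shorter expressed genes in every list. The ATRX KD lists were small genome-wide, with 7211 and 6305 peaks against 33086 to 38773 in the other 4 lists. The mark was also concentrated, with 35 to 52 of the genes holding any H3K27me3 body peak per list and the 10 with most peaks holding 65.8% to 79.3% of them. Gm20388, whose model spans other genes, alone held 18.8% to 35.3%. Genes with H3K27me3 in their bodies in both WT lists (35) had a median log2 fold change of -0.12 in ATRX KD, and those with it in neither (285) of 0.40.

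Among these few genes H3K27me3 was lower in some and higher in others in ATRXΔRBR. Of 15 genes with at least 5 body peaks in both WT lists, 9 had fewer in both ATRXΔRBR lists, where 70.3% of 708 such protein-coding genes did. Of 17 genes with at least 5 in both ATRXΔRBR lists, 9 had more than in either WT list, where 49.8% of 644 genes did. These shares of 60% and 52.9% are below and near their backgrounds. In ATRX KD all 15 were lower in both lists, as were 99.7% of all such genes, and of 3 genes with at least 5 peaks in both ATRX KD lists 0 were above WT (background 4.76% of 21).

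In the body of Camta1 H3K27me3 gave 47 and 50 peaks in WT, 9 and 6 peaks in ATRXΔRBR and 11 and 8 peaks in ATRX KD, which covered 19.1% and 21.04% of the body in WT, 6.85% and 6.02% of it in ATRXΔRBR and 1.58% and 1.05% of it in ATRX KD. Both measures fell outside the WT range in ATRXΔRBR. Celf4, an RNA-binding protein gene, had 24 and 25 peaks in WT, 0 and 0 peaks in ATRXΔRBR and 1 and 2 peaks in ATRX KD, and Cask, a scaffold kinase gene on the X, had 11 and 25 peaks in WT, 0 and 0 peaks in ATRXΔRBR and 0 and 0 peaks in ATRX KD. Neither had a peak left in ATRXΔRBR. Nrg1 went the other way, with 4 and 5 peaks in WT, 51 and 46 peaks in ATRXΔRBR and 5 and 2 peaks in ATRX KD. These covered 0.51% and 0.612% of the body in WT, 20.5% and 17.8% of it in ATRXΔRBR and 0.479% and 0.196% of it in ATRX KD. Its TSS peak, present in both WT lists, was in neither ATRXΔRBR list. Syne1, coding for nesprin-1, had 1 and 2 peaks in WT, 38 and 33 peaks in ATRXΔRBR and 2 and 1 peaks in ATRX KD, and Hacd1, coding for a fatty acid elongation enzyme, had 0 and 0 peaks in WT, 16 and 14 peaks in ATRXΔRBR and 4 and 0 peaks in ATRX KD. Each of these 3 genes thus held more H3K27me3 body peaks in both ATRXΔRBR lists than in either WT list. Apart from Nrg1, Celf4 and Rnf220, the genes of this paragraph and the next were chosen after their values were seen.

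Counts of broad peaks and the length they cover could differ. Rnf220, a ubiquitin ligase gene, had 29 and 27 peaks in WT, 15 and 15 peaks in ATRXΔRBR and 8 and 4 peaks in ATRX KD. These covered 50.9% and 54.2% of the body in WT, 62.4% and 60.5% of it in ATRXΔRBR and 3.28% and 2.27% of it in ATRX KD, higher in ATRXΔRBR than in WT as fewer and longer peaks were called. RNA of none of the 7 genes described here passed the test in ATRXΔRBR. The log2 fold change of Camta1 was 0.01 ± 0.21 (SE, edgeR adjusted p = 0.98), of Celf4 -0.41 ± 0.20 (SE, adjusted p = 0.31), of Cask 0.04 ± 0.20 (SE, adjusted p = 0.95), of Nrg1 -0.45 ± 0.20 (SE, adjusted p = 0.27), of Syne1 0.62 ± 0.39 (SE, adjusted p = 0.42), of Hacd1 -0.92 ± 0.28 (SE, adjusted p = 0.11) and of Rnf220 -0.12 ± 0.22 (SE, adjusted p = 0.82). Frmd4a, Nfib, Iqsec1, Cep112, Oxr1 and Mcc were the other genes with more H3K27me3 body peaks in ATRXΔRBR, and Rps6kc1, Bri3, Cacna1a, Xkr6 and Hdac8 the others with fewer.

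**Figure D5:**
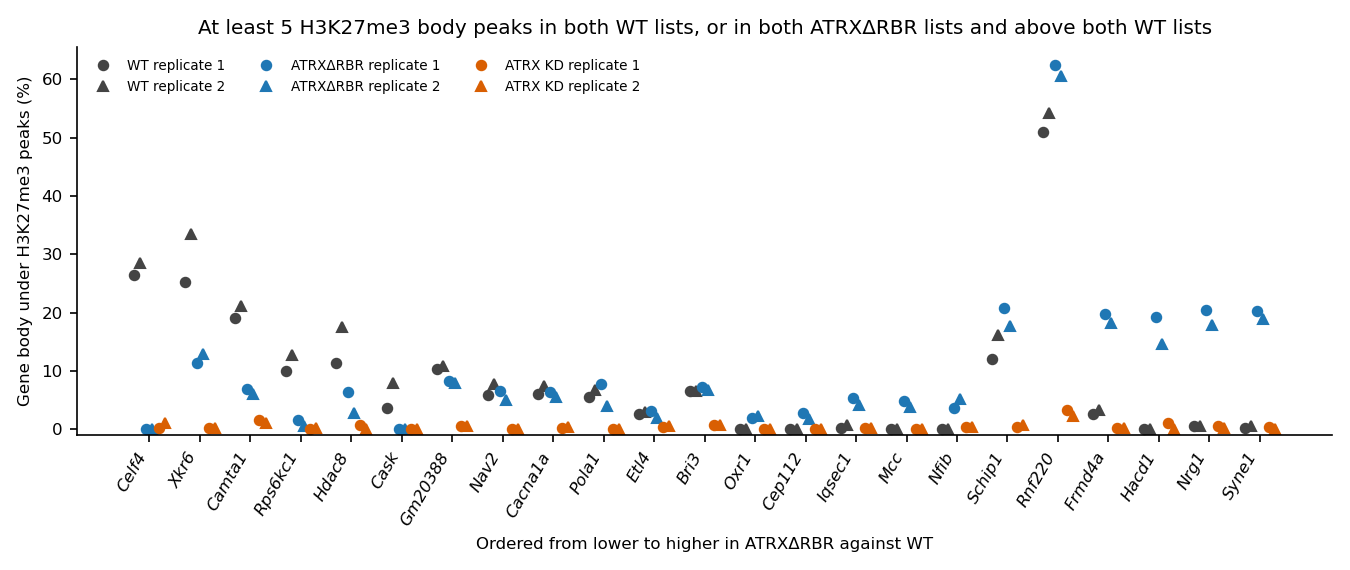
Share of the gene body (%) under H3K27me3 peaks in each of the 6 lists for 23 very long genes, ordered by the difference of the ATRXΔRBR mean from the WT mean. Genes at the left, such as Celf4, lose coverage in ATRXΔRBR, those at the right, such as Nrg1 with 20.5% and 17.8%, gain it, and all 23 have at most 3.28% in ATRX KD.

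On the 9 X-linked genes H3K27me3 body density was 20.2 and 26.0 peaks per Mb in WT, 12.2 and 5.14 per Mb in ATRXΔRBR and 0.64 per Mb in each ATRX KD list. On the autosomal genes it was 3.05 and 3.29 per Mb in WT, 3.78 and 3.11 per Mb in ATRXΔRBR and 0.96 and 0.73 per Mb in ATRX KD. An EZH2 peak lay at the TSS of 33.3% and 22.2% of the X-linked genes in WT, and of 83.6% and 78.5% of the autosomal ones. The X-linked genes are few, so that 1 gene is 11.1% of them. The density was carried by 3 of the 9, singled out after their values were seen. H3K27me3 covered 11.4% and 17.6% of the body of Hdac8 in WT, 5.47% and 6.78% of that of Pola1 and 3.65% and 7.83% of that of Cask, whereas the other 6 had at most 0.61% covered. X-linked very long genes under the floor had 14.1 and 21.7 peaks per Mb in WT, where all very long genes under it had 14.5 and 16.2.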

How the data were processed

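Poly(A) RNA was sequenced with a strand-specific kit in 6 MEF libraries. Per the study's methods the authors aligned reads with STAR and deposited RSEM estimated counts and TPM per gene. The authors also deposited FPKM and, for each peak, a MACS2 score, and neither was used here. CUT&RUN reads were aligned to mm10 with Bowtie2, and the authors called broad peaks per library with MACS2. Peak positions, with the deposited fold enrichment (a ratio) and −log10 q values, were used here. The deposited RSEM transcript length was used only to band genes.

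Estimated counts were rounded and fitted with edgeR 4.0.16 in R 4.3.3 (TMM, quasi-likelihood test, genes with over 10 counts in total in the 4 libraries of a comparison, Benjamini-Hochberg over all genes tested, call under 0.05). All 326 genes passed this filter. Levels within a gene are CPM and levels between genes TPM, and error terms are SE of the fit with 2 libraries per genotype. Peaks were assigned with a TSS window of 2 kb around the outermost annotated start and counted over merged bodies. Python 3.11.15, numpy 2.4.6, pandas 2.3.3, pysam 0.24.0 and matplotlib 3.10.9 were used. Sequences were read from mm10. The fit was tested on simulated counts with known changes before use.

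The genes, the function lists, the marker lists and the tests were chosen with earlier results of these data known. Genes named were the 10 with the largest called change per direction and comparison, the 8 highest in WT TPM, the 5 longest, those beside each threshold, up to 5 each with ATRX gained or lost at the TSS, the 8 with the most ATRX body peaks, up to 8 with H3K27me3 at the TSS in WT, and up to 4 called per list. Exceptions are Diaph3, Myo1d, Ext1, Sh3kbp1, Stk3, Mllt3 and the genes of the H3K27me3 comparison and printed peaks, named after their values were seen, Schip1 and Camta1 as overlapping genes, and Cpq, which completes a count. Alternatives were DESeq2 1.42.0, other filters, windows, thresholds and floors, left-out libraries and replicate blocks. The number of columns of per-sample values not mapped was 0. Peak files give no depth, so no interval is given for peak counts. Some items are not reported here.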

Additional observations from a re-analysis of the deposited data

How the results depend on the processing

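With 2 libraries per genotype, and peak lists without their depth, small differences are not detectable. Of the results of a comparison, 164 values under alternatives stayed near the reported value, 33 moved and 1 reversed. Near meant within 1.5-fold for a number of calls and within the spread of replicates otherwise. A peak difference could therefore change sign and still count as near. With a library left out, the difference in EZH2 TSS share in ATRXΔRBR ran from -23.5 to 1.69 percentage points. That in ATRX TSS share ran from -8.74 to 8.74. Of the values of named genes 1018 kept their call, 48 lost it and 12 gained it. The causes were not tested, except where a setting itself changes the genes or libraries used. In ATRXΔRBR against WT the 14 calls became 28 (23 higher, 5 lower) when all 6 libraries were fitted together, 36 (29 and 7) without a count filter, and 39 of 390 genes (19 and 20) with the floor on mean TPM. Over all genes tested the calls went from 1120 of 16287 to 1736 of 17956 with all 6 libraries and to 1979 of 26561 without the filter. Leaving out a library gave 15 to 28 calls, with medians of 0.03 to 0.28. DESeq2 called 19 genes (17 higher, 2 lower), and 156 and 144 in ATRX KD against WT and against ATRXΔRBR. Replicate numbers did not pair the samples, since same-numbered deviations correlated at -0.65 between WT and ATRXΔRBR, -0.12 between WT and ATRX KD and 0.15 between ATRXΔRBR and ATRX KD. A replicate block gave 9 calls (9 and 0) in ATRXΔRBR and a block with crossed numbers, added after the data were seen, 152 (116 and 36). Over all 16287 genes tested these blocks called 1068 and 5547. In ATRX KD against WT and against ATRXΔRBR the replicate block gave 170 and 187 calls, where 5796 of 16748 and 6775 of 16485 genes tested were called. Leaving out a library gave 101 to 245 calls in ATRX KD against WT, with medians of 0.28 to 0.44, and 69 to 246 against ATRXΔRBR, with medians of 0.11 to 0.35. The median in ATRX KD against WT was 0.44 for genes over 300 kb and 0.54 on log2(TPM + 1), and against ATRXΔRBR 0.38 on log2(TPM + 1).

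Differences in TSS share, in percentage points, moved as follows. For EZH2 in ATRX KD against WT they were -46.5 with any annotated transcript start and -47.6 for genes over 300 kb. For H3K27me3 in ATRXΔRBR they were 0.77 with a 1 kb window, 2.76 with any start, 0.15 at q up to 0.01 and 2.76 over 300 kb, and the sign reversed to -0.15 when the peak midpoint had to lie in the window. For H3K27me3 in ATRX KD they were -3.37 at q up to 0.01, -0.61 by midpoint and -2.41 over 300 kb. The log2 ratio of H3K27me3 body density in ATRXΔRBR to WT was 0.17 by covered length and 0.27 over 300 kb, and that of ATRX KD to WT was -2.81 at q up to 0.01, -4.001 by covered length, -1.91 over 300 kb and -2.39 without Gm20388.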
